A study of Mus musculus with 12 samples.

Results

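The genes followed here were 6 transient week 1 genes of the paraquat-injured mouse lung: Grem1, Lrrc15, Chl1, Hmga2, A2m and Kcnt1, 6 of the 20774 genes listed in any library. They were chosen by their own levels, near absent in saline lungs, high at 1w after paraquat (PQ) and lower again at 4w. Their levels in these groups are therefore a description and carry no test. RNA of homogenized lung was sequenced from C57BL/6J mice, wild type and labelled as 8 weeks old, after 1 intratracheal dose of PQ in saline or of saline alone. The 12 libraries formed 4 groups of 3: control 1w (saline), PQ 1w, control 4w (saline) and PQ 4w, with 1w and 4w read as weeks. No group carried a transgene or a gene deletion, and the labels do not say whether replicates are separate animals. The p-values below therefore speak of the spread among these libraries, which may be technical.

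The 6 genes have different roles. Grem1 encodes gremlin 1, a secreted protein that binds bone morphogenetic proteins (BMPs) and keeps them from their receptors. A2m encodes alpha-2-macroglobulin, a secreted protein that traps proteases and is taken up by the receptor Lrp1. Lrrc15, Chl1 and Kcnt1 encode membrane proteins: a leucine-rich repeat protein found on fibroblasts activated by TGF-beta, an adhesion molecule of the L1 family best known from neurons, and a potassium channel opened by intracellular sodium. Hmga2 encodes a chromatin protein with AT-hooks that is made in embryonic mesenchyme and is silent in most adult tissue. In the lung, paraquat is taken up by alveolar epithelium, where it cycles between redox states, and the injury is followed by activation of fibroblasts and deposition of matrix.

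The genes lie on 4 chromosomes of GRCm38, the build of the deposited tables (mm10). Grem1 is at chr2:113748675-113758648 on the minus strand and Kcnt1 at chr2:25863791-25918273 on the plus strand. Chl1 is at chr6:103510584-103733038 and A2m at chr6:121636165-121679238, both on the plus strand. Lrrc15 is at chr16:30269302-30283254 and Hmga2 at chr10:120361268-120476469, both on the minus strand. An exon of Hmga2 overlaps the antisense gene 1700006J14Rik in GENCODE, and the strandedness of the libraries is not given in the sources used here, so reads of the 2 genes cannot be told apart there. No exon of the other 5 genes overlapped another annotated gene.

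Promoter windows from RefSeq (GRCm38.p6) were on hand for Grem1, Lrrc15, Chl1 and Hmga2, and not for A2m and Kcnt1. All 4 on hand are printed, so that the sequence around the starts of these genes can be set side by side. Each window runs from 250 bases before to 50 bases after the annotated start, and is printed in the direction of transcription with searched motifs in capitals. The windows are chr2:113758599-113758898 (minus) for Grem1, chr16:30283205-30283504 (minus) for Lrrc15, chr10:120476420-120476719 (minus) for Hmga2 and chr6:103510626-103510925 (plus) for Chl1. The Chl1 window lies wholly inside the gene span given above, which begins at 103510584, so it is set on a start further inside the gene. No sequence before that span was searched for Chl1, whereas the windows of Grem1, Lrrc15 and Hmga2 reach beyond their gene spans.
Grem1: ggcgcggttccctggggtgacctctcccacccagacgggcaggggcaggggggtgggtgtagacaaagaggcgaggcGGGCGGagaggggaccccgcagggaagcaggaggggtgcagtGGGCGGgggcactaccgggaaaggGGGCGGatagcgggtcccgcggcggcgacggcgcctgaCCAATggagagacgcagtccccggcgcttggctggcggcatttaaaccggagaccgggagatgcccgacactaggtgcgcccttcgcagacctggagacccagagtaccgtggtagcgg
Lrrc15: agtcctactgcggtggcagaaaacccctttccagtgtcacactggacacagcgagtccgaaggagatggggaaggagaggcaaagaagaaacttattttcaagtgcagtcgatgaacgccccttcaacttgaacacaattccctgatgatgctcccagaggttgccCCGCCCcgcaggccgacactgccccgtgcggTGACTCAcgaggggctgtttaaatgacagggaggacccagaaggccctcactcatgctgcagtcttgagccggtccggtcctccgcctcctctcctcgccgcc
Hmga2: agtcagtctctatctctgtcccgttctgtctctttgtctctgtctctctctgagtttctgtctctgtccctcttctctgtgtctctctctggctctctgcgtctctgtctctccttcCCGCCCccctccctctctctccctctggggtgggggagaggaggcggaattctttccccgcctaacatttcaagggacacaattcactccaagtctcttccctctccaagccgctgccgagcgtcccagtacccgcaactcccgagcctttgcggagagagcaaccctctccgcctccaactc
Chl1: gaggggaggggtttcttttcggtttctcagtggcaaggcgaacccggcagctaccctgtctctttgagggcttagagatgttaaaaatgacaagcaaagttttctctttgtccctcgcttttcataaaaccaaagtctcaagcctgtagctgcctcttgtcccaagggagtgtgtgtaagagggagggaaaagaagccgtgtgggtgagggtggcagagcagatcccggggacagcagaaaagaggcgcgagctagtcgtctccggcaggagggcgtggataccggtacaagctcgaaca
Their GC content was 70.7%, 58.7%, 57.7% and 53.7% in that order, and the median of all 32544 RefSeq promoters was 53.0%. The GC box GGGCGG stood 3 times in the Grem1 window, starting 173, 131 and 107 bases before the start, and on the opposite strand (CCGCCC) once each in Hmga2 and Lrrc15. It was present on either strand in 35.9% of all promoters. Grem1 also held a CCAAT box (37.4% of all promoters), and Lrrc15 held TGACTCA, a match to the AP-1 motif TGANTCA (7.79% of all promoters). None of the 8 motifs searched matched the Chl1 window. The others were TATAAA (13.6% of all promoters), the TEAD motif GGAATG (14.6%), the STAT motif TTCNNNGAA (8.33%), the SMAD motif CAGACA (20.9%) and the CArG box (1.64%), and none of these 5 matched any of the 4 windows.

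Library totals were 17220978 to 18559809 expected counts. Levels are given as CPM, the count of a gene relative to library size with TMM factors, as mean ± SD of n = 3, and intervals are 95% counting intervals of summed counts, which cover counting error only. As a check of the tissue, 7 lung epithelial markers summed to 38686 to 66277 CPM in the controls. They summed to 15098 to 16564 CPM in PQ 1w and to 38311 to 58448 CPM in PQ 4w, and Scgb1a1 of club cells and Sftpc of alveolar type 2 cells fell at 1w (log2 -2.63 ± 0.24 and -0.90 ± 0.12, edgeR adjusted p = 4.22e-06 and 5.4e-05). These 2 genes made up most of the sum, and the other 5 markers, Epcam and Cdh1 among them, did not pass at 1w. Summed CPM of 9 fibroblast markers ran from 10986 to 12205 in PQ 1w, against 3078 to 3268 in its controls, and from 2529 to 2875 in PQ 4w, against 2387 to 2497. This sum was mostly Col1a1, Col1a2 and Col3a1. At 1w 5 of the 9 rose and 2 did not pass. Pdgfra fell from 465 ± 88.2 to 341 ± 59.6 CPM and Tcf21 from 87.7 ± 8.70 to 60.9 ± 3.71 CPM. Summed CPM of 5 genes of dividing cells ran from 389 to 447 in PQ 1w, against 69.7 to 91.2, and from 44.6 to 74.8 in PQ 4w, against 30.7 to 37.4. Those of 6 mesothelial markers ran from 870 to 971 in PQ 1w, against 419 to 487, and from 302 to 356 in PQ 4w, against 322 to 372. Of the 6 markers, Msln (102 ± 9.27 to 450 ± 4.54 CPM) and Krt19 (177 ± 25.3 to 299 ± 42.7 CPM) rose at 1w. The other 4 did not pass. Smooth muscle and pericyte markers summed to 1097 to 1106 CPM in PQ 1w, against 732 to 823 CPM, and to 690 to 999 CPM in PQ 4w, against 865 to 1055 CPM. At 1w 4 of these 9 markers rose, Acta2 from 157 ± 20.3 to 426 ± 9.73 CPM, 2 fell (Lmod1 and Cox4i2) and 3 did not pass. The 7 cartilage markers summed to 1.37 to 2.29 CPM in PQ 1w, lowest in replicate 1, against 0.170 to 1.02 CPM in all controls and 0.879 to 1.07 CPM in PQ 4w, with Matn3 at 0.801 ± 0.243 CPM in PQ 1w. The sums of these 5 sets, though not each of their markers, were highest in the same 3 libraries as the 6 genes. The part of these sets, or of the lower epithelial sum, in the levels below was not tested. In whole lung, fewer cells of a type and less RNA per cell cannot be told apart. Markers of macrophages and other leukocytes summed to 3299 to 3732 CPM in PQ 1w and 4830 to 5488 CPM in its controls, mostly Lyz2, which fell at 1w. Of these 7 markers at 1w, 2 rose (Cd68 and Adgre1 of macrophages, given beside Kcnt1), 4 fell (Ptprc, Lyz2, Cd3e and Cd79a) and 1 did not pass. Neuron and Schwann cell markers, which could accompany Chl1 and Kcnt1, summed to 68.0 to 78.0 CPM in PQ 1w and to 73.4 to 84.8 CPM in the controls, although Tubb3, a tubulin best known from neurons, rose from 1.35 ± 0.56 to 9.60 ± 1.10 CPM at 1w (edgeR adjusted p = 4.09e-06).

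All 6 genes were higher in each PQ 1w library than in any of the 6 control libraries, a separation met by 24.6% of the 15921 genes tested, and from which nothing is read here because the choice of the genes used it. The plot of levels by library shows this, and that only Chl1 and Kcnt1 stayed above the controls at 4w.

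**Figure D1:**
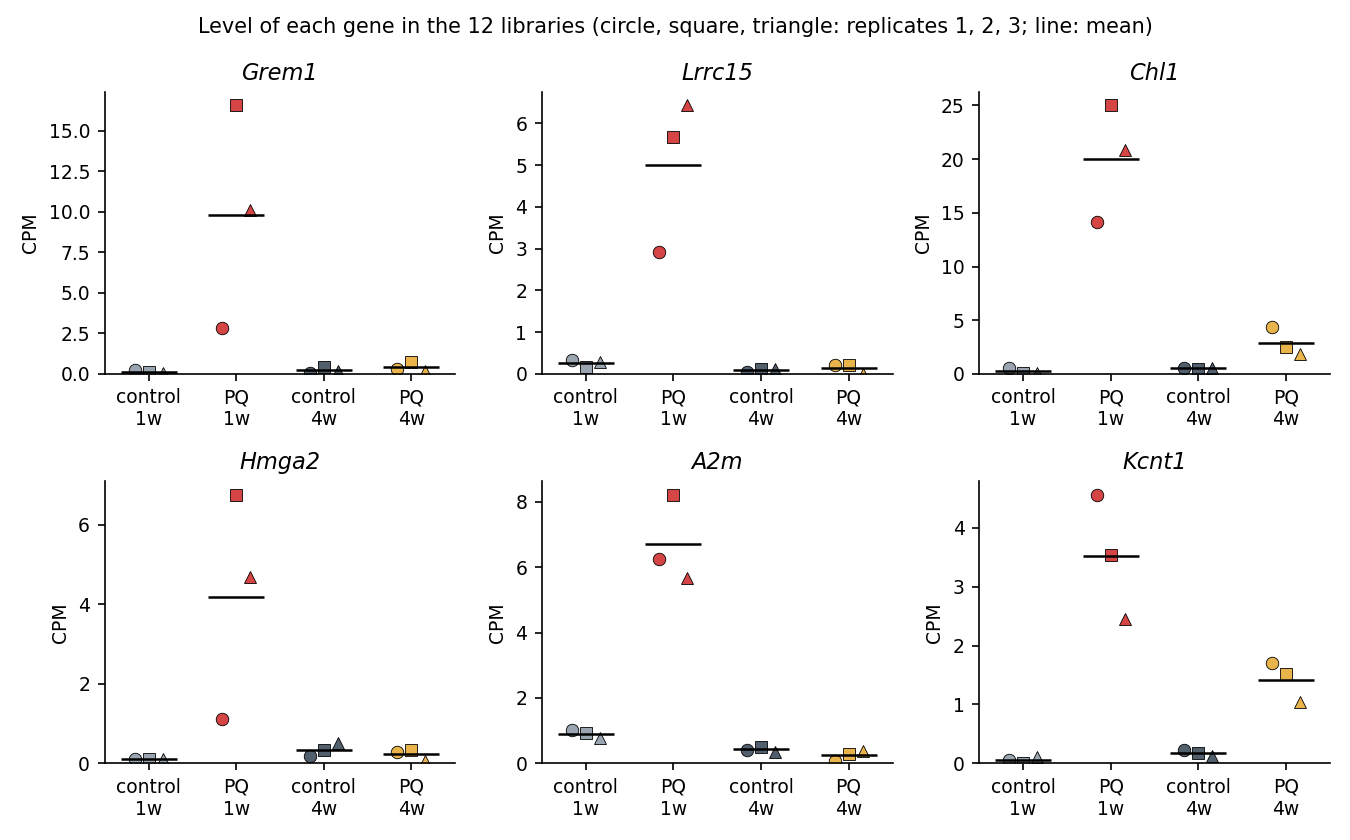
CPM (y axis, linear, each panel on its own scale from 0) of the 6 genes in the 12 libraries by group (x axis); symbols mark replicates 1 to 3 and the line the group mean. All PQ 1w points lie above all control points, and PQ 4w points lie above all controls in Chl1 and Kcnt1 only.

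Grem1 had expected counts of 4, 2 and 1 in control 1w, 51, 304 and 185 in PQ 1w, 1, 8 and 3 in control 4w, and 6, 13 and 3 in PQ 4w. The control libraries were close to absence and overlapped those of PQ 4w, and replicate 1 of PQ 1w was far below its 2 companions. Mean Grem1 level went from 0.132 ± 0.087 CPM in control 1w to 9.82 ± 6.88 CPM in PQ 1w, a ratio of 74.8 (36.1 to 187; log2 6.15 ± 0.80, SE). The log2 value was 6.76 without control 1w replicate 1 and 5.54 without PQ 1w replicate 2. Of the PQ 1w level 4.16% was left at 4w, at 0.408 ± 0.291 CPM against 0.227 ± 0.203 CPM in control 4w. That ratio of 1.78 had an interval of 0.842 to 3.94, so a lasting difference was not detectable at this depth.

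A2m, the other secreted inhibitor, had expected counts of 18, 16 and 14 in control 1w and 7, 9 and 6 in control 4w. PQ 1w libraries had 114, 151 and 104 counts, and PQ 4w libraries 1, 5 and 7. In A2m and Lrrc15 the 3 control 4w values lay below the 3 control 1w values (15.5% of tested genes), for A2m at 0.419 ± 0.084 against 0.902 ± 0.120 CPM, a log2 difference of -1.09 ± 0.39. In Hmga2 and Kcnt1, at few counts, the mean was higher in control 4w than in control 1w instead. Hmga2 was at 0.342 ± 0.170 against 0.113 ± 0.001 CPM, and Kcnt1 at 0.172 ± 0.059 against 0.056 ± 0.056 CPM. For Kcnt1 the lowest control 4w library and the highest control 1w library both had 2 counts. In PQ 1w A2m reached 6.72 ± 1.34 CPM, 7.46 times control 1w (5.51 to 10.3; log2 2.89 ± 0.29). At 4w it stood at 0.240 ± 0.168 CPM, 3.57% of PQ 1w and 0.572 times control 4w (0.265 to 1.19).

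Lrrc15 had expected counts of 6, 3 and 5 in control 1w, 53, 104 and 118 in PQ 1w, 1, 2 and 2 in control 4w, and 4, 4 and 0 in PQ 4w. It was not listed in PQ 4w replicate 3, where 3 counts would have been 0.165 CPM. All 3 PQ 1w libraries stood above the rest, with replicate 1 the lowest. The 5 counts of control 4w gave 0.362 times the level of control 1w, with an interval of 0.102 to 1.06. Lrrc15 went from 0.263 ± 0.086 to 5.0 ± 1.85 CPM at 1w, a ratio of 19.05 (11.2 to 35.3; log2 4.21 ± 0.47). At 4w it was at 0.148 ± 0.128 CPM, which was 2.96% of PQ 1w (4.44% without PQ 4w replicate 3) and 1.55 times control 4w (0.447 to 6.02).

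Chl1 had expected counts of 257, 459 and 383 in PQ 1w against 10, 2.05 and 2.20 in control 1w. At 4w it had counts of 80.5, 44.1 and 34.3 in PQ and 9.41, 7.68 and 9.97 in control. No PQ library of either time overlapped a control library, and replicate 1 was the lowest PQ 1w library and the highest PQ 4w library. Mean level was 0.264 ± 0.262 CPM in control 1w and 20.005 ± 5.49 CPM in PQ 1w, a ratio of 76.1 (45.2 to 140; log2 6.21 ± 0.46). Control 1w replicate 1 held 10 of the 14.3 control counts, and without it the log2 value was 7.40. In PQ 4w 14.6% of that was left, 2.91 ± 1.32 CPM, which was 5.67 times control 4w (3.75 to 8.87; log2 2.49 ± 0.46).

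Kcnt1 had expected counts of 1, 0 and 2 in control 1w, 83, 65 and 45 in PQ 1w, 4, 3 and 2 in control 4w, and 31, 27 and 19 in PQ 4w. In control 1w replicate 2, where it was not listed, 3 counts would have been 0.171 CPM. Every PQ library of both times was above every control library, and replicate 1 was the highest PQ 1w library, unlike in Grem1, Lrrc15, Chl1 and Hmga2. The ratio at 1w was 62.4 with an interval of 21.0 to 305, since the 3 controls held only 3 counts together, and its log2 of 5.80 ± 0.51 became 6.65 without control 1w replicate 3. Kcnt1 kept the largest share of its PQ 1w level, 40.4%, with 3.52 ± 1.06 CPM in PQ 1w and 1.42 ± 0.341 CPM in PQ 4w, 8.29 times control 4w (4.15 to 18.8; log2 3.0 ± 0.46). The macrophage markers Cd68 and Adgre1 were higher at both times as well. They were the only 2 of 7 macrophage and other leukocyte markers that rose at 1w, and 4 fell. Cd68 stood at 122 ± 4.53 CPM in PQ 1w and 54.8 ± 4.23 CPM in PQ 4w, against 33.3 ± 3.26 and 25.1 ± 1.47 CPM in the matched controls (edgeR adjusted p = 2.1e-08 and 8.03e-05). Adgre1 stood at 62.9 ± 1.01 and 42.7 ± 6.08 CPM, against 25.3 ± 1.91 and 18.3 ± 1.52 CPM (edgeR adjusted p = 1.01e-06 and 0.000156), and the part of such cells in the Kcnt1 level was not tested.

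Hmga2 had expected counts of 2.06, 2.06 and 2.04 in control 1w, 19.5, 124.0 and 85.7 in PQ 1w, 3.02, 6.12 and 9.13 in control 4w, and 5.14, 6.31 and 1.03 in PQ 4w. Its PQ 1w libraries were spread as those of Grem1, with replicate 1 far below the others, and its PQ 4w and control 4w libraries overlapped. From 0.113 ± 0.001 CPM in control 1w it reached 4.18 ± 2.86 CPM in PQ 1w, a ratio of 37.2 (16.8 to 102; log2 5.13 ± 0.75). In PQ 4w it was at 0.222 ± 0.148 CPM, 5.32% of PQ 1w and 0.646 times control 4w (0.284 to 1.42). Control 4w itself was 3.04 times control 1w (1.16 to 9.36), on few counts.

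Per transcript length, on the deposited FPKM scale, the order of mean levels in PQ 1w was Grem1 at 5.98, Chl1 at 2.53, A2m at 1.41, Hmga2 at 0.973, Lrrc15 at 0.923 and Kcnt1 at 0.577. Grem1 ranged from 1.69 to 10.07 FPKM over the 3 libraries, which covers Chl1 at 1.76 to 3.16. Hmga2, at 0.25 to 1.57 FPKM, likewise covered Lrrc15, at 0.53 to 1.2, so the neighbours in each of these pairs were not separated by their spread. A2m lay at 1.2 to 1.72 FPKM and Kcnt1 at 0.41 to 0.74 FPKM.

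At 4w Chl1 and Kcnt1 were apart from the controls, and the other 4 genes overlapped them. The 3 PQ 4w values were above all 6 control values in Chl1 and Kcnt1 (6.95% of tested genes), and in none of the other 4. All 6 genes had each PQ 4w value below each PQ 1w value, as did 32% of tested genes, and the choice of the genes used that fall too. Without PQ 4w replicate 3, whose counts differed most from its companions, the ratios to control 4w were 6.68 for Chl1 and 9.38 for Kcnt1, and 2.34 for both Grem1 and Lrrc15. For Hmga2 and A2m they were then 0.895 and 0.401. On the same basis 45.8% of the Kcnt1 level and 17.2% of the Chl1 level were left.

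**Figure D2:**
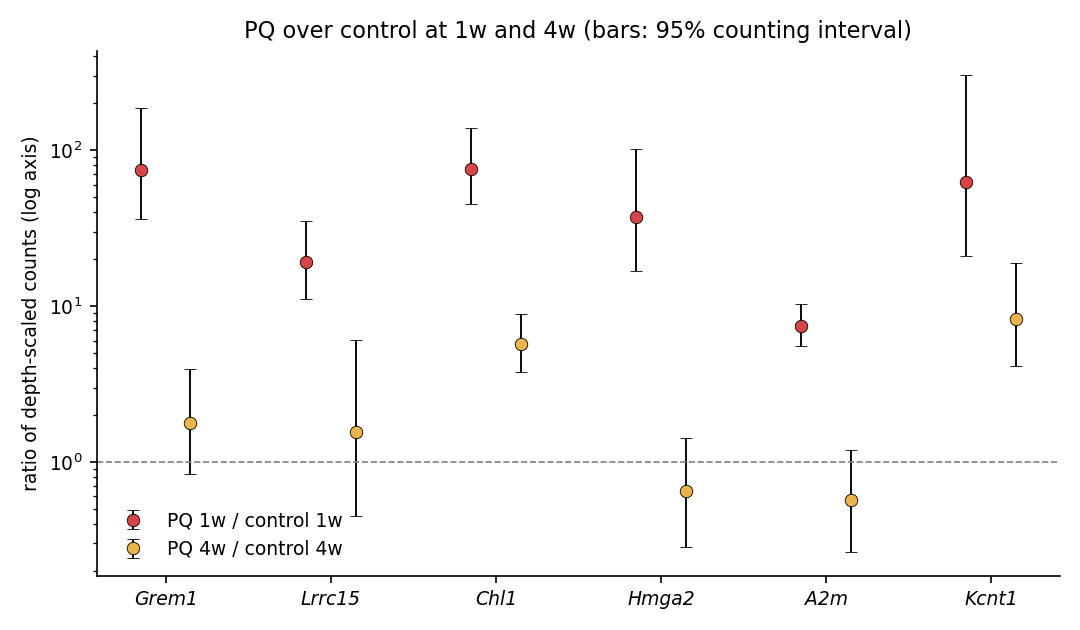
Ratio of depth-scaled summed counts, PQ over control (y axis, log scale), at 1w and 4w for each gene (x axis); bars are 95% counting intervals and the dashed line is a ratio of 1. At 4w the intervals of Chl1 and Kcnt1 start at 3.75 and 4.15, and those of the other 4 genes include 1.

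The 3 PQ 1w libraries differed widely among themselves in some of these genes. The highest was at least 2 times the lowest in Grem1 (5.91 times), Hmga2 (6.14 times) and Lrrc15 (2.21 times), as in 6.14% of tested genes, and less than that in Kcnt1 (1.86 times), Chl1 (1.77 times) and A2m (1.45 times). Grem1 in replicate 1 was 0.210 times the mean of replicates 2 and 3, Hmga2 0.192, Lrrc15 0.482 and Chl1 0.616 times, whereas A2m was at 0.902 and Kcnt1 at 1.52 times. Replicate 1 was the lowest PQ 1w library for Grem1, Lrrc15, Chl1 and Hmga2, as it was for 35% of tested genes. A value of at most 0.5 times the other 2 was reached by 3 of the 6 and by 2.29% of tested genes, whose median was 0.993. The summed fibroblast markers were 10986, 11417 and 12205 CPM in replicates 1, 2 and 3, and those of dividing cells were 389, 409 and 447 CPM. The fibroblast sum is mostly Col1a1, Col1a2 and Col3a1, and its members varied: Lum in replicate 1 was 0.541 times and Pi16 0.698 times the mean of the other 2, the other 7 were at 0.873 to 1.33 times, and replicate 1 was lowest in 5 of the 9. It was also lowest in 14 of 20 genes of activated fibroblasts, with a median of 0.897 times. Heart muscle markers summed to 64.1, 229.6 and 196 CPM, lowest in replicate 1 as well. Their sums were 51.1 to 296 CPM in control 1w, 566 to 1571 CPM in control 4w and 137 to 977 CPM in PQ 4w. The part of such tissue in these levels was not tested. Without replicate 1 the ratio of mean CPM to control 1w was 101.0 for Grem1, 50.8 for Hmga2, 23.0 for Lrrc15, 87.0 for Chl1, 7.70 for A2m and 53.5 for Kcnt1.

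**Figure D3:**
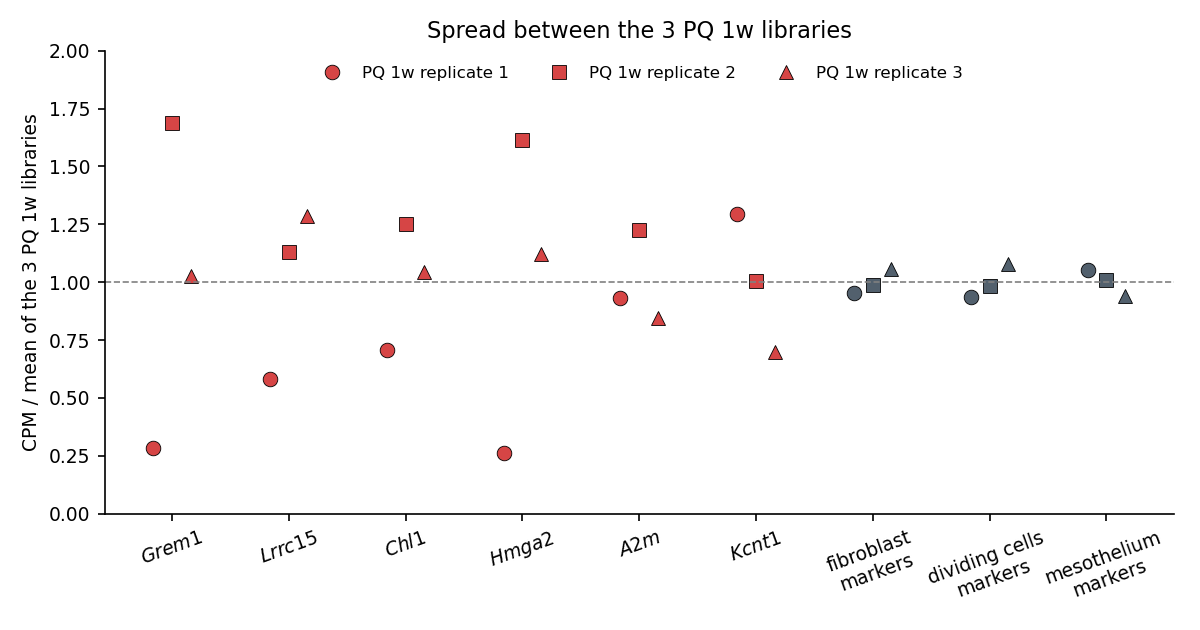
Level in each PQ 1w library over the mean of the 3 (y axis, linear from 0) for the 6 genes and for the summed fibroblast, dividing cell and mesothelium markers (x axis); symbols mark the replicates. Replicate 1 lies lowest in Grem1, Lrrc15, Chl1 and Hmga2 and highest in Kcnt1, while the marker sums stay near 1.

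Grem1 belongs to the BMP antagonists, and the other members of that group did not move as one. Of 14 other BMP antagonists tested, 6 rose at 1w, 4 fell and 4 did not pass, with a median log2 of 0.08. Among all genes tested 25.9% rose and 22.9% fell at 1w, with a median of 0.00. Fst, which encodes the activin-binding protein follistatin, rose from 5.32 ± 0.16 to 62.6 ± 4.60 CPM (log2 3.56 ± 0.20, edgeR adjusted p = 1.12e-07). Fstl1, a secreted follistatin-like glycoprotein, rose by log2 2.16 ± 0.11 (edgeR adjusted p = 4.31e-08), and Nog (noggin), Bmper, Chrd (chordin) and Fstl3 rose by log2 2.01, 1.18, 1.15 and 0.67. Among those that fell, Chrdl1, a chordin-like protein, went from 23.8 ± 1.66 to 9.66 ± 2.0 CPM (log2 -1.30 ± 0.15, edgeR adjusted p = 2.16e-05), and Bambi (a decoy receptor) and Twsg1 had log2 values of -0.82 and -0.36. At 4w Fst was still higher (log2 1.2 ± 0.20, edgeR adjusted p = 0.00372), and Chrdl1 was at 19.5 ± 2.55 CPM in PQ and 19.1 ± 1.76 CPM in control.

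**Figure D4:**
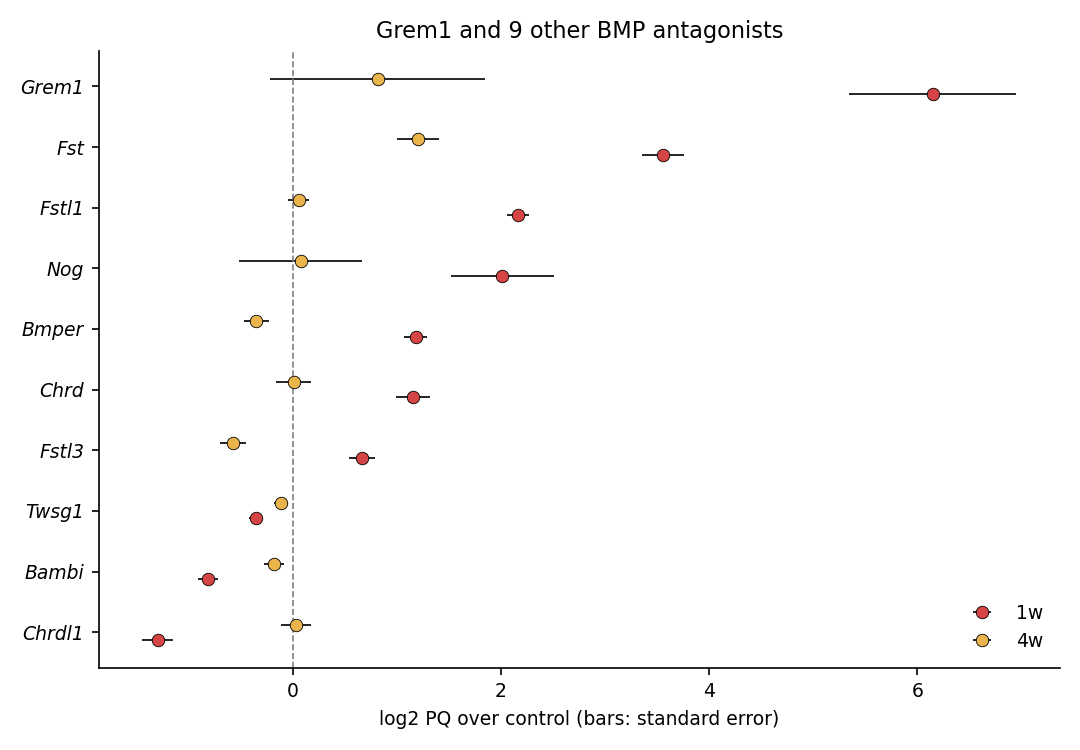
Log2 difference of PQ over control (x axis) at 1w and 4w for Grem1 and 9 other BMP antagonists that passed at 1w (y axis, in order of the 1w value); bars are standard errors. Grem1 stands at 6.15 at 1w, with Fst at 3.56 next, and Chrdl1 lies at -1.30.

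Genes of the BMP pathway itself moved in both directions, much as all genes tested did at 1w (25.9% rose and 22.9% fell). Of 28 BMP ligands, receptors, SMADs and targets tested, 8 rose at 1w, 9 fell and 11 did not pass (median log2 0.02), and without PQ 1w replicate 2 the number that rose was 5. Bmp1, a protease that trims procollagen rather than a BMP ligand, rose by log2 0.95 ± 0.08 (edgeR adjusted p = 2.35e-06). Acvr2b, an activin and BMP receptor, fell with a log2 of -0.97 ± 0.07 (edgeR adjusted p = 5.57e-07), and the ligand Bmp6 fell with a log2 of -1.58 ± 0.13 (edgeR adjusted p = 1.58e-06). Bmp6 was also lower at 4w (log2 -0.76 ± 0.12, edgeR adjusted p = 0.00351).

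Genes of TGF-beta signalling and of activated fibroblasts, the setting in which Lrrc15 and Grem1 are best known, mostly rose at 1w. Of 20 TGF-beta ligands, receptors and targets, 13 rose, 2 fell and 5 did not pass (median log2 0.43). The latency protein family member Ltbp2 rose by log2 1.87 ± 0.12 and the receptor Tgfbr2 by 0.77 ± 0.07 (edgeR adjusted p = 2.79e-07 and 4.63e-06). The 2 that fell were the co-receptor Tgfbr3 (log2 -0.69) and the latency protein Ltbp4 (log2 -1.03). Of 20 genes of activated fibroblasts, 19 rose and 1, Postn, did not pass (median log2 1.54). Col1a1 rose by log2 2.66 ± 0.09, Col5a1 by 2.45 ± 0.09 and the membrane protease Adam12 by 3.22 ± 0.15 (edgeR adjusted p = 6.67e-09, 1.21e-08 and 2.69e-08). Postn (periostin) was at 400.4 ± 13.1 CPM in control 1w and 433 ± 37.1 CPM in PQ 1w.

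The structural relatives of Lrrc15 and Chl1 did not share a direction. Of 13 other leucine-rich repeat membrane proteins tested, 5 rose at 1w, 3 fell and 5 did not pass (median log2 0.18). Lingo1, a neuronal receptor component, rose by log2 1.54 ± 0.28, the channel subunit Lrrc8c rose by 0.38 ± 0.09, and Gp5 of platelets fell with a log2 of -1.25 ± 0.21 (edgeR adjusted p = 0.000733, 0.00389 and 0.000351). Of 10 L1 family members and partners, 3 rose, 4 fell and 3 did not pass (median log2 0.00), and the number that fell was 2 without control 1w replicate 3 or without PQ 1w replicate 3. Nrcam, an L1 family member, rose from 21.0 ± 2.64 to 68.3 ± 5.21 CPM (log2 1.70 ± 0.18, edgeR adjusted p = 1.11e-05). Ncam1, another adhesion molecule of the immunoglobulin family, rose by log2 1.19 ± 0.27 (edgeR adjusted p = 0.00303), while Ank3, an ankyrin that anchors L1 proteins, fell with a log2 of -0.73 ± 0.08 (edgeR adjusted p = 9.65e-06).

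Around Hmga2, 8 of 14 oncofetal genes and mesenchymal transcription factors rose at 1w and 6 did not pass (median log2 0.58), and without control 1w replicate 2 the number that fell was 2. Hmga1, the other member of the family, rose from 47.6 ± 3.22 to 80.7 ± 6.72 CPM (log2 0.76 ± 0.07, edgeR adjusted p = 5.89e-06). Prrx1, a homeobox factor of mesenchyme, rose by log2 2.15 ± 0.13, and Snai1, a repressor of E-cadherin, by 1.43 ± 0.14 (edgeR adjusted p = 1.95e-07 and 4.91e-06). H19, an imprinted fetal RNA, rose from 0.827 to 21.0 ± 17.0 CPM (log2 4.66 ± 0.60, edgeR adjusted p = 5.49e-05). In PQ 1w replicate 1 it was 0.238 times the mean of the other 2, a low value of the same size as in Grem1 and Hmga2.

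Of 7 relatives and receptors of A2m tested, 4 rose at 1w, 1 fell and 2 did not pass (median log2 0.28). Cd109, a membrane-anchored relative that binds TGF-beta, rose from 2.41 ± 0.37 to 36.5 ± 3.71 CPM (log2 3.92 ± 0.18, edgeR adjusted p = 2.99e-08). Lrpap1, the chaperone of the receptor Lrp1, rose by log2 0.28 ± 0.06, and Hc, complement C5, fell with a log2 of -1.03 ± 0.12 (edgeR adjusted p = 0.00279 and 2.84e-05). Pzp, the nearest relative of A2m measured, had 2.31 to 20 expected counts in the 12 libraries and did not pass at either time (edgeR adjusted p = 0.371 and 0.140). Of 19 genes of the IL-6 family and the acute phase, a setting in which A2m is known to be induced, 10 rose, 4 fell and 5 did not pass (median log2 0.89). Il6 itself rose from 0.169 ± 0.057 to 1.00 ± 0.41 CPM, and Socs3, a target of the pathway, by log2 1.15 ± 0.12 (edgeR adjusted p = 0.00140 and 1.08e-05). The siderophore-binding protein Lcn2 rose by log2 1.73 ± 0.17 at 1w and 1.08 ± 0.17 at 4w (edgeR adjusted p = 8.04e-06 and 0.00322), and the receptor Il11ra1 fell at 1w with a log2 of -0.76 ± 0.08 (edgeR adjusted p = 1.2e-05).

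Among 13 other potassium channels and partners of Kcnt1 tested, 3 rose at 1w, 2 fell and 8 did not pass (median log2 0.08), and only 1 rose without control 1w replicate 3 or without PQ 1w replicate 2. Kcnn3, a calcium-activated channel, rose from 3.82 ± 1.32 to 13.3 ± 4.57 CPM (log2 1.79 ± 0.31, edgeR adjusted p = 0.000476). Kcnk2, a channel opened by membrane stretch, and the inward rectifier Kcnj15 fell with log2 values of -1.25 ± 0.11 and -0.75 ± 0.08 (edgeR adjusted p = 2.54e-06 and 1.05e-05). Kcnt2, the nearest relative of Kcnt1, had too few counts to be tested.

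As among all genes tested, fewer genes of the 10 lists passed at 4w than at 1w. Of the 158 tested genes of the lists, 32 passed in PQ 4w against control 4w (19 higher and 13 lower, 20.3%), and 108 had passed at 1w (68.4%). In PQ 1w against control 1w, 25.9% of all genes tested were higher and 22.9% lower. In PQ 4w against control 4w, 12.1% of all genes tested passed, 5.75% higher and 6.39% lower, 1932 genes in all. That number was 641 without control 4w replicate 1, 1096 and 1183 without control 4w replicate 2 or 3, and 994 without PQ 4w replicate 1. Of the 20 genes of activated fibroblasts, Sfrp1, Tnc and Col3a1 were higher at 4w, Tagln was lower and 16 did not pass (median log2 0.09), and 18 of the 20 were lower in PQ 4w than in PQ 1w (27.8% of all genes tested). Of the 14 BMP antagonists Fst was higher and Fstl3 lower, and of the 20 TGF-beta genes 4 were higher, Ltbp2, Tgfbr1 and Tgfbr2 among them, and 16 did not pass. Of the 28 BMP ligands, receptors, SMADs and targets 3 were higher and 5 lower (median log2 -0.14), 8 in all and 4 without control 4w replicate 1. Of the 19 genes of the IL-6 family and the acute phase 4 were higher (median log2 0.05), and 1 passed without control 4w replicate 1. Of the 7 relatives of A2m 2 were higher (median log2 0.36), 1 of the 14 companions of Hmga2 was higher and 2 were lower, 3 of the 13 leucine-rich repeat proteins were lower, and 1 of the 13 potassium channels was higher and 1 lower. None of the 10 L1 family members and partners passed in edgeR or DESeq2 on all 12 libraries, and 2 had an unadjusted p under 0.05. With limma on FPKM 1 passed, and with 1 library left out of the edgeR fit 0 to 1 did. With 1 library left out, the number was 1 to 3 for the relatives of A2m, 1 to 4 for the leucine-rich repeat proteins and 2 to 4 for the activated fibroblast genes. Sfrp1, Tnc, Col3a1, Tagln and Tgfbr1 were named after their values were seen. Fstl3 did not pass without control 4w replicate 1 or 2, Tgfbr2 without any 1 of 10 libraries, and Tagln under most of the alternatives run.

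The description used to choose the 6 genes was written as numbers to see which other genes share it: a control mean under 1 CPM, a PQ 1w mean of at least 1 CPM and 10 times the controls, and a PQ 4w mean of at most 0.5 times PQ 1w. These limits were set with the 6 genes known. They held for 46 genes, 0.221% of all listed, and for all 6. A2m, at 10.2 times the controls, was the nearest inside the fold limit with Fbn2 (10.2 times), and Camk1g (9.95 times) and Prrx2 (9.94 times) were the nearest outside. The 10 highest in PQ 1w by CPM, which is not scaled to gene length, were H19, Chl1, Ereg, Ccl2, Etv4, Thbs4, Prss22, Grem1, Ccl7 and Gjb5, from 21.0 to 8.95 CPM. They include the epidermal growth factor receptor ligand Ereg, the monocyte chemokines Ccl2 and Ccl7, the transcription factor Etv4, the matrix protein Thbs4, the protease Prss22 and the connexin gene Gjb5. The 46 genes had a median of 14.4% of the PQ 1w level left at 4w, from 1.14% to 40.4%. Kcnt1 was the upper end, Chl1 lay near the median, and Grem1, Lrrc15, A2m and Hmga2 were at 2.96 to 5.32%. In 15 of the 46 the PQ 4w values lay above all controls. Replicate 1 of PQ 1w was at most 0.5 times the other 2 in 17 of them and above their mean in 10, among them Ccl2 (1.49 times), Ccl7 (1.45 times) and Kcnt1.

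**Figure D5:**
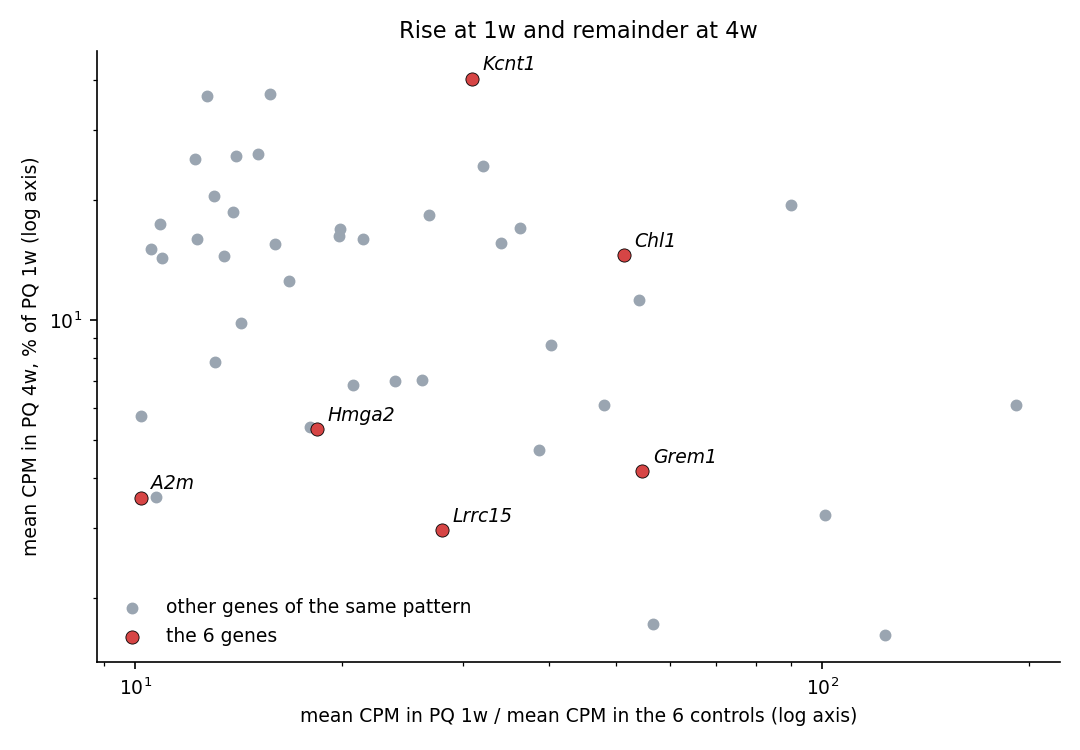
Share of the PQ 1w level left in PQ 4w (y axis, log scale) against the ratio of PQ 1w to the 6 controls (x axis, log scale), for 44 of the 46 genes of this pattern; 2 genes with no control count have no ratio. Kcnt1 lies at the top at 40.4%, and Grem1, Lrrc15, Hmga2 and A2m lie at 2.96 to 5.32%.

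The genes whose log2 levels tracked each of the 6 most closely over the 12 libraries differed between them. The measure is Pearson's r over 12 libraries against 14496 genes, all carrying the same split of PQ 1w from the rest, and is a description. Grem1 was nearest to H19 (0.994), the secreted leucine-rich protein Islr (0.982) and the fibroblast gene Cthrc1 (0.982), and Hmga2 to Grem1 (0.977), Islr (0.969) and the lipid enzyme Acsl6 (0.966). Lrrc15 was nearest to the glycolytic enzyme Pgam1 (0.989), Col1a1 (0.985) and the cell cycle factor E2f3 (0.985). Chl1 was nearest to Mark1 (0.991), D17H6S56E-5 (0.991) and the zinc transporter Slc39a11 (0.989), and A2m to Rtn4 (0.995), Grb10 (0.992) and Sec23a (0.992). Among the genes nearest to Kcnt1 were Trem2 (0.985) and Gpnmb (0.973), both best known from macrophages. Whole lung RNA does not place a transcript in a cell type, and the neighbours of Kcnt1 named here are not mesenchymal genes. Among the 6 themselves, r ran from 0.624 for A2m with Kcnt1 to 0.977 for Grem1 with Hmga2, and Chl1 with Kcnt1, the pair still high at 4w, was at 0.953. The 10 genes nearest to the mean profile of the 6 were Serpine2, Eno1, Shc4, Gapdh, H19, Vash2, Matn2, Ttyh2, Rnf152 and Timp1, at 0.989 to 0.982. Of these, 4 stayed among the nearest 10 with log2(CPM + 0.1) in place of log2(CPM + 0.5), and 2 did when only the 6 PQ libraries were used.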

How the data were processed

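The authors deposited expected counts of genes, made with RSEM and not scaled to depth, per the file headers. HISAT, RSEM 1.2.12 and mm10 are named in the submitters' processing notes. FPKM values, scaled to transcript length and depth by the authors, were deposited beside them, per the file headers, and again in a combined table. The sources used here give no HISAT version, annotation release or strandedness. The expected counts were rounded (69.7% of those listed were already whole). Genes that a library's table did not list entered as 0, and 27 symbols turned into dates were restored from gene IDs.

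Groups and replicate numbers came from the labels. edgeR 4.0.16 (R 4.3.3; glmQLFit and glmQLFTest, TMM factors 0.974 to 1.06, filterByExpr with a minimum count of 10 and total of 15) was fitted to all 12 libraries with 4 group means. It tested 15921 genes, and genes rose or fell where the Benjamini-Hochberg adjusted p was under 0.05. A standard error is the absolute log2 effect divided by the square root of F. Replicate pairs differed by a chi-square of 7.12 to 15.4 per degree of freedom, and by 30.8 and 32.9 for the pairs of PQ 4w replicate 3, so no library repeated another. On simulated counts for PQ 1w against control 1w (15921 genes, 100 changed at each size), 82% of log2 changes of 1 and 95% of those of 2 were called, and 6.84% of calls were false.

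The 6 genes and all lists were chosen with earlier results of these data known. Genes were named as the 6, the 3 of each list with the smallest p at 1w and those changed the other way, further members of the close families, the nearest 3 by r and the 10 nearest the mean profile, and the 10 highest of the shared pattern, and some genes under this rule are not reported here. Ccn2 was found by gene ID, and Mug2, listed as a relative of A2m, was not found in the tables. Alternatives were DESeq2 1.42.0, its size factors, other filters, only the groups compared, a replicate block, leaving out each library, and limma 3.58.1 on log2(FPKM + 0.1). Ratio intervals are exact 95% intervals of summed counts.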

Additional observations from a re-analysis of the deposited data

Results flagged for a closer look

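The effect of PQ differed between 4w and 1w in 33 of the 42 named list genes, by the interaction term of the edgeR fit (adjusted p from 4.07e-07 to 0.0435, adjusted over all 15921 genes). Among all genes tested, 14.1% differed upward and 17.9% downward. Each value in parentheses is the log2 effect at 4w minus that at 1w, with n = 3 per group; in 22 genes it was negative and in 11 positive. The 6 genes themselves were not tested this way, since they were chosen for that difference. The 42 were named largely by their p or direction at 1w, and the 1w effect enters this difference. Many differences were therefore built in, and the share of 33 in 42 cannot be set against that of all genes. Groups of 3 libraries were too small for the check of single outlying values.

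Among the BMP antagonists the difference was negative in Fst (-2.36), Fstl1 (-2.11), Bmper (-1.53), Chrd (-1.15) and Fstl3 (-1.24), and positive in Chrdl1 (1.32) and Bambi (0.64). Among BMP ligands, receptors and enzymes the difference was negative in Bmp1 (-0.63), and positive in Acvr2b (0.89) and Bmp6 (0.82). Among TGF-beta genes the difference was negative in Ltbp2 (-1.27) and Tgfbr2 (-0.53), and positive in Tgfbr3 (0.69) and Ltbp4 (0.79). Among adhesion molecules and their partners the difference was negative in Nrcam (-1.69) and Ncam1 (-1.40), and positive in Ank3 (0.70). Of the 5 activated fibroblast genes named, 4 differed, each downward: Col1a1 (-2.58), Col5a1 (-2.54), Adam12 (-3.12) and Cthrc1 (-2.63). The 4 named companions of Hmga2 differed downward too: Prrx1 (-1.90), Snai1 (-1.51), Hmga1 (-0.57) and H19 (-3.74). Near A2m, the difference was negative in Cd109 (-3.44), Lrpap1 (-0.36) and Socs3 (-1.18), and positive in Hc (1.46) and Il11ra1 (0.55). It was positive in the potassium channel genes Kcnk2 (0.66) and Kcnj15 (0.62) and negative in Lingo1 (-1.19).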

How the results depend on the processing

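The 6 genes kept the direction of their log2 effects in PQ 1w against control 1w and PQ 4w against PQ 1w under every alternative run, and the number with PQ 4w values above all controls stayed at 2. Every named list gene kept its side of the threshold at 1w under every alternative run that tested it. At 4w, PQ against control gave 1932 genes, 746 with only the groups compared, and 641 to 2104 with 1 library left out. With limma on FPKM the split at 4w was 1071 higher and 467 lower, against 915 and 1017. Control 4w against control 1w gave 1609 genes, 759 with limma on FPKM, and 122 to 2570 with 1 library left out. The pattern of the 6 genes held for 46 genes, for 23 at 20 times the controls (Hmga2 and A2m then fell outside), and for 41 to 56 with 1 library left out. Of the 10 genes nearest the mean profile, 4 remained with log2(CPM + 0.1) and 2 with the 6 PQ libraries. Same-numbered libraries of control and PQ did not deviate together at 1w (r -0.35, -0.21 and -0.07) or at 4w (-0.11, 0.15 and -0.18). No pairing by number was seen, although groups of 3 libraries cannot exclude one. With the replicate number as a block, calls were 7636 for PQ 1w against control 1w, 1646 for PQ 4w against control 4w, 8454 for PQ 4w against PQ 1w, 1452 between controls and 4826 for the difference of effects. At these depths, with 22 counts or fewer in all of control 4w, intervals were wide, so small differences of Grem1, Lrrc15, Hmga2 and A2m at 4w were not detectable.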
